A study of Bos indicus with 6 samples.

Results

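The forkhead, SOX and KLF genes were described as a group of 59 of the 24616 genes listed for the isthmus, the narrow part of the oviduct next to the uterus. They were taken by gene symbol alone: FOX with a letter from A to S and a number, SOX with a number, or KLF with a number. FOXJ1, FOXA2, SOX17 and SOX10 were left out by the rule. FOXJ1, FOXA2 and SOX10 stand in the marker lists of ciliated epithelium, uterine glands and Schwann cells used below, and SOX17 stands in none of them. This gave 36 forkhead (FOX), 12 SOX and 11 KLF genes.

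Forkhead factors bind DNA through a winged helix, SOX factors bend it through an HMG box, and KLF factors bind GC-rich boxes through zinc fingers. Members of each family set cell identity, answer to insulin, growth factors and steroids, or hold genes silent through corepressors. In the reproductive tract they are known from epithelial differentiation, from the ovary and, for KLF9 and FOXO1, from the response of the uterus to progesterone.

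The tissue came from multiparous, non-lactating Nelore cows (Bos indicus), with 1 library for each of 6 cows. All cows were presynchronised with a prostaglandin F2α (PGF) analog and a GnRH agonist and then carried an intravaginal progesterone device, given with estradiol benzoate. In the 3 cows of the large follicle and large corpus luteum group (LF/LCL), PGF was also given with the device, which was taken out 42 h before the GnRH agonist that set off ovulation. In the 3 cows of the small follicle and small corpus luteum group (SF/SCL), it was taken out 30 h before. Both groups received PGF at device removal and again later. The whole thickness of the isthmus wall on the side of ovulation was taken on day 4. The 3 LF/LCL cows were the top ranked of their group and the 3 SF/SCL cows the bottom ranked, so the libraries stand for the ends of the range and not for all treated cows.

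The libraries held 23899117 to 34193164 counted reads, and the unit throughout is the normalized count, the reads of a gene divided by the size factor of the library. Gene length was not used, so levels are compared between cows and not between genes. The median residual SD over the genes of the fit was 0.435 on the log2 scale with the 6 libraries and 0.184 without SF/SCL cow 489215, which stood apart. Its library had reads in 16944 genes, beside 17348 to 17718 in the others, and why it stood apart was not tested. The main results are therefore given with and without this cow. It was singled out from these same values, and without it only cows 856 and 97 remain in SF/SCL. The p-values without it are a description and carry no weight as support. Summed over the 10 listed genes of secretory and general epithelium, the normalized counts were 31648 to 46241 in LF/LCL and 323164, 68360 and 383323 in SF/SCL cows 856, 489215 and 97. The gap in cows 856 and 97 was nearly all OVGP1, the main secreted glycoprotein of the oviduct, since the other 9 genes summed to 29698 to 45955 in LF/LCL and to 51370, 67631 and 58165 in SF/SCL, highest in cow 489215. Of these 9, ELF3 and CLDN4 had negative log2 fold changes (-0.54 and -0.07). The sums of the 7 smooth muscle genes were 712920 to 832284 in LF/LCL and 332940, 1203030 and 390648 in SF/SCL. Cow 489215 was highest in 4 of these 7 genes and lowest in 1, SYNPO2, at 9453 against 12069 to 32631 in the other cows. In SYNPO2 and MYH11 every SF/SCL cow was below every LF/LCL cow. In whole tissue, fewer cells of a type and less RNA per cell cannot be told apart. The part of tissue make-up in the values below was not tested.

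Values for single cows are given in 1 order, LF/LCL cows 617, 79 and 527 and then SF/SCL cows 856, 489215 and 97. Log2 fold changes are SF/SCL over LF/LCL on the log2(normalized count + 1) scale from limma, and negative values mean higher levels in LF/LCL. Each cow is 1 replicate. The p-values test the difference between the groups against the spread between these cows, which limma moderates with that of all genes.

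Of the 59 genes, 44 entered the test, which needed a mean above 5 and above the SD: 23 FOX, 10 SOX and 11 KLF genes. FOXB1, FOXI2, FOXR1 and SOX1 had 0 reads in every library. A further 8 had a mean of 5 or lower, namely FOXB2, FOXD2, FOXH1, FOXI1, FOXL1, FOXN1, FOXR2 and SOX2, with a highest value of 12.9, for FOXI1 in SF/SCL cow 856. FOXE1, FOXN4 and FOXD4L1 had an SD at or above their mean. FOXC1, SOX11, KLF2 and KLF10 were not found under these symbols and were not analysed here under them.

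None of the 44 genes passed the adjusted threshold of 0.05 with the 6 cows, where 0 of the 15387 genes tested did (0.0%). The lowest adjusted p among the 44 was 0.412 (limma, Benjamini-Hochberg). DESeq2 called 2.7% of all genes and edgeR 0.0%, in both with 0 of the 44. At an unadjusted p under 0.05, 3 of the 44 passed (6.82%), beside 8.66% of all genes tested. The members' share was thus no higher than that of all genes. The same 3 genes, FOXL2, FOXD3 and FOXS1, were the only members of the fit whose groups did not overlap, beside 18.1% of all genes. An exact permutation test of 3 cows against 3 has 10 splits, cannot give a two-sided p below 0.1, and was not used.

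FOXL2, the forkhead factor of ovarian granulosa cells, had 230, 183 and 168 normalized counts in LF/LCL and 94.2, 93.2 and 129 in SF/SCL. All LF/LCL cows were above all SF/SCL cows, with means of 194 ± 32.6 and 105 ± 20.4 (SD, n = 3 each). The log2 fold change was -0.87 (SE 0.30, adjusted p = 0.480 by limma, 0.0870 by DESeq2), and -0.79 (adjusted p = 0.0758) without cow 489215. The gene was on the study's own list of genes higher in LF/LCL, which was drawn from these libraries and so is not independent of them.

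FOXD3, a neural crest factor, had 4.19, 12.2 and 12.3 normalized counts in LF/LCL and 1.52, 1.33 and 1.08 in SF/SCL. These values rest on few reads, 31 over the LF/LCL libraries and 4 over the SF/SCL libraries, and every SF/SCL library was below the 3 reads that a count of 0 allows. The ratio of LF/LCL to SF/SCL was 7.34, with a 95% Clopper-Pearson interval of 2.59 to 28.6 that covers counting error only. The log2 fold change was -2.07 (SE 0.58, adjusted p = 0.412 by limma), and -2.08 (adjusted p = 0.0904) without cow 489215. FOXD3 passed the limit on the mean only through the LF/LCL group, so the limit favoured a difference in this gene, and its p-values and its place among the 3 genes carry no weight as support. When any 1 of the LF/LCL cows was left out, the gene no longer met the limits on mean and SD.

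FOXS1, a forkhead gene known from neural crest derivatives and the cells around blood vessels, was the 1 member of the 3 that was higher in SF/SCL. It had 285, 384 and 363 normalized counts in LF/LCL and 500, 471 and 636 in SF/SCL, with means of 344 ± 52.3 and 536 ± 88.1 (SD, n = 3 each). The log2 fold change was 0.64 (SE 0.24, adjusted p = 0.523 by limma). It was 0.72 (SE 0.19, adjusted p = 0.0466 by limma) without cow 489215, past the threshold.

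**Figure D1:**
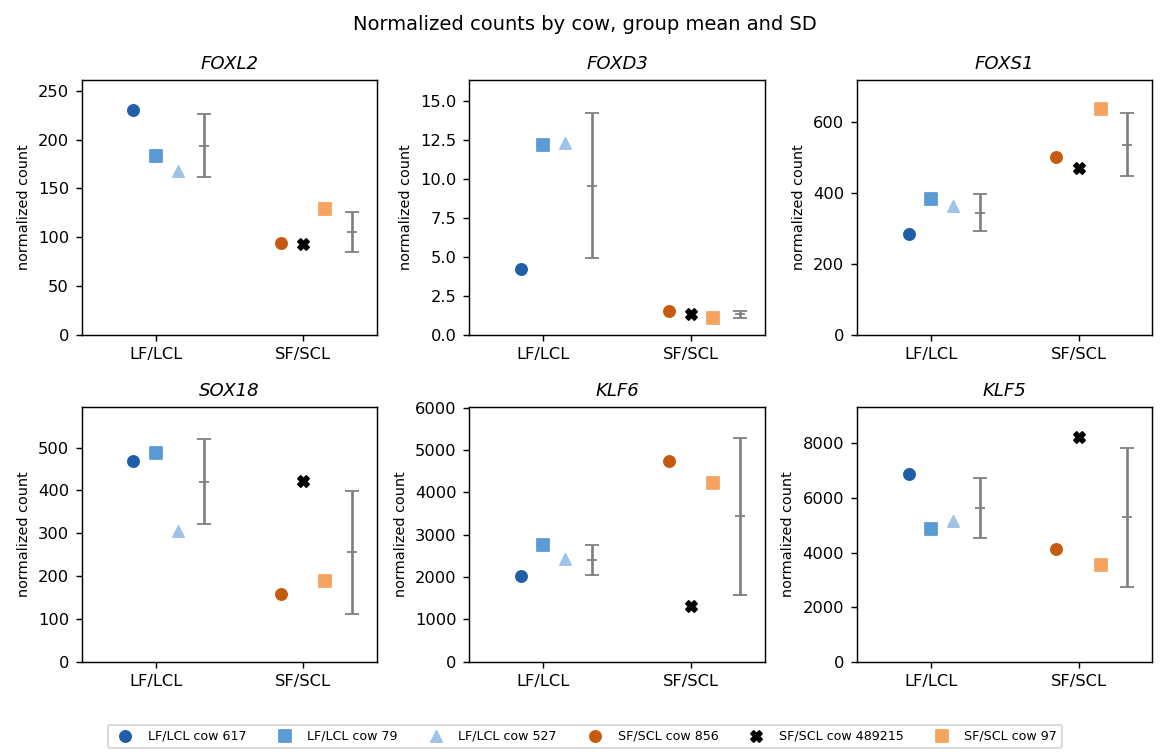
Normalized counts (linear axes from 0) of FOXL2, FOXD3, FOXS1, SOX18, KLF6 and KLF5 in the 3 LF/LCL and 3 SF/SCL cows, 1 point per cow, with the group mean and SD in grey (n = 3 each). The groups are apart for FOXL2, FOXD3 and FOXS1, while cow 489215, the cross, lies within or beyond the LF/LCL cows for SOX18, KLF6 and KLF5.

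Cow 489215 was the lowest of the 6 cows in 29 of the 44 genes (65.9%), beside 35.7% of all genes tested. It was the highest in 4 (9.09%), FOXA3, FOXC2, KLF5 and KLF15, beside 36.7% of all genes. In 24 of the 44 (54.5%) its value was below 50% of the mean of the other 5 cows, beside 24.5% of all genes. In the whole table this cow was thus lowest and highest about equally often, and in these families it was mostly lowest. Some gene lists given below leaned the same way. Cow 489215 was lowest in 6 and highest in 2 of 9 steroid receptor and responsive genes. Among 12 corepressors it was lowest in 6 and highest in 3, and likewise among 13 kinase and 14-3-3 genes. Of 14 immediate early genes it was lowest in 2 and highest in 9. By family, it was lowest in 15 of 23 FOX, 7 of 10 SOX and 7 of 11 KLF genes. No other cow was lowest in more than 5 of the 44.

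**Figure D2:**
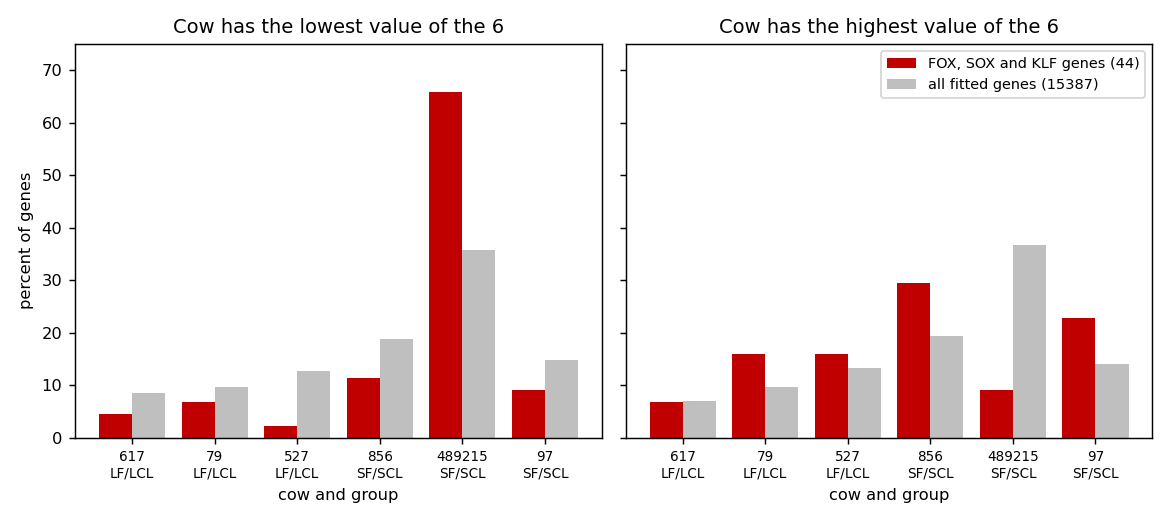
Percent of the 44 fitted FOX, SOX and KLF genes (red) and of all 15387 fitted genes (grey) in which each cow had the lowest (left) or the highest (right) value of the 6. Cow 489215 had the lowest value in 65.9% of the 44 genes and in 35.7% of all genes.

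The median log2 fold changes moved with this cow. With the 6 cows the median was -0.21 over the 44 genes, -0.37 over FOX, -0.19 over SOX and -0.17 over KLF genes, beside -0.02 over all genes. Higher in LF/LCL were 33 of the 44 (75%), beside 51.4% of all genes. Without cow 489215 the medians were 0.10, 0.05, 0.34 and 0.11, beside -0.00092 over all genes, and 27 of the 44 (61.4%) were higher in SF/SCL, beside 49.9%. The side to which most members leaned thus turned when 1 library was left out.

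Without cow 489215, 3 of the 44 genes passed the adjusted threshold (6.82%), SOX18, KLF6 and FOXS1, beside 18.2% of the 15495 genes tested. edgeR gave the same 3 genes, beside 18.1%. At an unadjusted p under 0.05, 13 passed (29.5%), beside 33.9%. The groups did not overlap in 17 (38.6%), beside 52.0%. By each of these counts the share was lower in the families than in the table as a whole, a difference that was not tested. The cow was left out because of its values in these data, so passing without it is no support for the 3 genes.

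**Figure D3:**
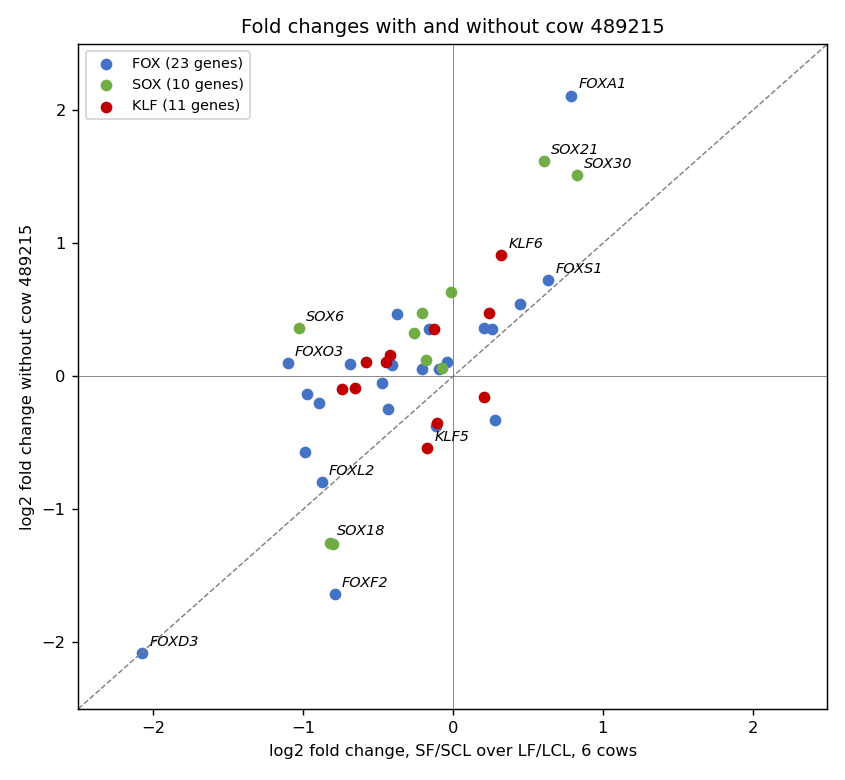
Log2 fold change of the 44 genes, SF/SCL over LF/LCL, with the 6 cows (horizontal axis) and without SF/SCL cow 489215 (vertical axis), 1 point per gene, FOX in blue, SOX in green and KLF in red. FOXD3, FOXL2 and FOXS1 lie near the dashed line of equal values, while SOX6 and FOXO3 pass from -1.03 and -1.10 to 0.36 and 0.10 in limma.

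Among the A forkheads, which open closed chromatin in epithelia of endodermal and hormone-responsive tissues, FOXA1 had 104, 23.5 and 19.3 normalized counts in LF/LCL and 191, 9.32 and 134 in SF/SCL. SF/SCL cows 856 and 97 were the highest and cow 489215 the lowest, so the groups overlapped. The log2 fold change was 0.79 (SE 1.24, adjusted p = 0.903), and 2.11 (SE 0.72, adjusted p = 0.0913) without that cow. Without cow 856, 527 or 79 it was 0.0019, 0.35 and 0.49, and without cow 617 or 97 the gene did not meet the limit on the SD. FOXA3 ran the other way in this cow, with 182, 52.6 and 76.4 in LF/LCL and 34.9, 257 and 145 in SF/SCL.

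The O forkheads, which stay in the cytoplasm once AKT has phosphorylated them and otherwise drive genes of metabolism, stress defence and cell cycle arrest, were each lowest in cow 489215. FOXO3 had 935, 1024 and 1075 normalized counts in LF/LCL and 1098, 87.9 and 1066 in SF/SCL. Cow 489215 thus had 8.45% of the mean of the other 5 cows, which all lay between 935 and 1098. FOXO1 had 663, 861 and 842 in LF/LCL and 819, 164 and 854 in SF/SCL, with cow 489215 at 20.3% of the others. FOXO6 had 69.1, 36.6 and 41.3 in LF/LCL and 40.3, 6.66 and 45.5 in SF/SCL, with cow 489215 at 14.3%. That value rests on 5 reads, against 39 to 66 in the other libraries. FOXO4 was less far apart, with 950, 877 and 1378 in LF/LCL and 1085, 805 and 1089 in SF/SCL, and cow 489215 at 74.9%. The log2 fold changes of FOXO3 and FOXO1 were -1.10 and -0.69 with the 6 cows and 0.10 (SE 0.11) and 0.09 (SE 0.15) without cow 489215. With the 6 cows the size depended on the method, as edgeR gave -0.44 and -0.38 and DESeq2 -0.43 and -0.36. Adjusted p-values without it were 0.558 and 0.694 (limma), neither past the threshold.

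Among the P forkheads, which are repressors, FOXP1 had 860, 1054 and 1180 normalized counts in LF/LCL and 732, 583 and 1013 in SF/SCL. The log2 fold change was -0.44 (SE 0.27, adjusted p = 0.745) and -0.25 without cow 489215. The groups overlapped through SF/SCL cow 97. The other 3, FOXP2, FOXP3 and FOXP4, had log2 fold changes of -0.99, 0.26 and 0.21, none past the test.

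Of the mesenchymal forkheads other than those above, FOXF1, a factor of the mesenchyme of hollow organs, had 102, 107 and 120 normalized counts in LF/LCL and 135, 86.5 and 103 in SF/SCL. The 2 groups had means of 110 ± 9.67 and 108 ± 24.8 (SD, n = 3 each), and the log2 fold change was -0.04 (SE 0.31, adjusted p = 0.980). FOXF2, its close relative, was low, with 8.37, 21.6 and 7.03 in LF/LCL and 6.08, 21.3 and 1.08 in SF/SCL. FOXC2, a factor of lymphatic vessels, had a log2 fold change of -0.12 and -0.37 without cow 489215.

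The K, N, J and M forkheads are expressed widely or with the cell cycle, and cow 489215 was lowest in 6 of the 7 in the fit. FOXK1, which restrains autophagy genes, had 245, 276 and 299 normalized counts in LF/LCL and 343, 65.2 and 413 in SF/SCL. FOXN2 had 173, 203 and 196 in LF/LCL and 173, 38.6 and 157 in SF/SCL. Cow 489215 was at 20.7% and 21.4% of the mean of the other cows in these genes. Without it the log2 fold changes were 0.47 (adjusted p = 0.112) for FOXK1 and -0.20 (adjusted p = 0.505) for FOXN2. FOXM1, which drives genes of mitosis, was the exception, with 15.7, 16.9 and 14.1 in LF/LCL and 15.2, 18.6 and 34.7 in SF/SCL. Its 14 to 32 reads per library gave a log2 fold change of 0.44 (SE 0.46, adjusted p = 0.862), with cow 97 above the rest.

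Among the SOX genes, SOX18, a factor of blood and lymphatic endothelium, had 469, 487 and 306 normalized counts in LF/LCL and 158, 421 and 189 in SF/SCL. SF/SCL cows 856 and 97 were below every LF/LCL cow, and cow 489215 was within the LF/LCL range. The log2 fold change was -0.82 (SE 0.43, adjusted p = 0.675 by limma). It was -1.25 (SE 0.25, adjusted p = 0.0199 by limma and by edgeR) without cow 489215. All 7 endothelial genes of the fit were also higher in LF/LCL, with a median of -0.29 and of -0.59 without cow 489215. Without it, 3 of the 7 passed the adjusted threshold, beside 18.2% of all genes. Per 100 counts of these 7 genes, SOX18 had 4.91, 4.00 and 3.16 in LF/LCL and 2.36, 3.81 and 2.43 in SF/SCL. This sum is mostly VWF, CLDN5 and TEK, and the part of endothelial cells in the SOX18 values was not tested.

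The D group of SOX factors, which lack a domain for activation and act as cofactors, was lowest in cow 489215 throughout. SOX6 had 125, 128 and 120 normalized counts in LF/LCL and 137, 7.99 and 186 in SF/SCL, so that cow 489215 had 5.74% of the mean of the other cows, the farthest of the 44 genes. Its log2 fold change with the 6 cows was -1.03 in limma, -0.18 in edgeR and -0.16 in DESeq2. SOX5 had 546, 427 and 588 in LF/LCL and 727, 173 and 709 in SF/SCL. SOX13 had 1138, 966 and 878 in LF/LCL and 1016, 570 and 1140 in SF/SCL. Without cow 489215 the groups of SOX5 and SOX6 did not overlap, SF/SCL being higher, with log2 fold changes of 0.48 (adjusted p = 0.0950) and 0.36 (adjusted p = 0.321) that did not pass.

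SOX4, a factor of progenitor cells, had 692, 558 and 468 normalized counts in LF/LCL and 783, 209 and 644 in SF/SCL, again lowest in cow 489215. SOX9, a factor of cartilage, Sertoli cells and epithelial progenitors, had 59.7, 40.4 and 16.7 in LF/LCL and 45.6, 13.3 and 63.9 in SF/SCL. The spread within each group of SOX9 exceeded the difference between them, with means of 38.9 ± 21.5 and 40.9 ± 25.6 (SD, n = 3 each). SOX8, of the same group, had 26.2, 23.5 and 14.9 in LF/LCL and 6.84, 22.6 and 9.75 in SF/SCL, the pattern of SOX18. For SOX8 the log2 fold change was -0.80 with the 6 cows and -1.26 (adjusted p = 0.122) without cow 489215. SOX2, the stem cell factor, had at most 2.17 normalized counts in any cow.

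Among the KLF genes, KLF6, a growth and injury response factor, had 2032, 2744 and 2419 normalized counts in LF/LCL and 4750, 1321 and 4216 in SF/SCL. Cows 856 and 97 were above every LF/LCL cow and cow 489215 below every one. The means were 2398 ± 357 and 3429 ± 1845 (SD, n = 3 each), and the log2 fold change was 0.32 (SE 0.49, adjusted p = 0.902 by limma). Without cow 489215 it was 0.91 (SE 0.14, adjusted p = 0.0101 by limma and by edgeR), the lowest adjusted p of the 44 genes. KLF5, a factor of epithelial proliferation, was the reverse, with 6880, 4847 and 5141 in LF/LCL and 4132, 8221 and 3530 in SF/SCL. For KLF5 the log2 fold change was -0.17 (SE 0.35) and, without cow 489215, -0.54 (SE 0.17, adjusted p = 0.0716), short of the threshold.

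KLF4, a factor of epithelial differentiation, had 974, 1766 and 1093 normalized counts in LF/LCL and 822, 1612 and 1134 in SF/SCL. The groups overlapped widely, with a log2 fold change of -0.11 (SE 0.34, adjusted p = 0.952). KLF7 had 282, 408 and 312 in LF/LCL and 415, 83.9 and 305 in SF/SCL, with cow 489215 at 24.4% of the mean of the other cows. KLF1, the erythroid factor, had 0.94 to 19.3 normalized counts.

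The 5 KLF repressors of the fit were low in cow 489215. KLF3, which works through the corepressor CtBP, had 408, 407 and 439 normalized counts in LF/LCL and 457, 138 and 478 in SF/SCL. KLF9, which works through SIN3A and is a partner of the progesterone receptor in the uterus, had 1272, 1333 and 1488 in LF/LCL and 1658, 463 and 1303 in SF/SCL. In the other cows KLF9 had group means of 1364 and 1480, and the log2 fold change without cow 489215 was 0.11 (SE 0.14, adjusted p = 0.615). The same cow was lowest in all 5 repressors of the fit, KLF3, KLF8, KLF12, KLF9 and KLF16, at 18.3% to 41.3% of the mean of the others. The 18.3% is that of KLF8, which had 2 reads in this cow against 7 to 29 in the others, so it is uncertain. KLF15, a glucocorticoid-responsive factor of amino acid and glucose metabolism, was highest in it, with 1183, 1511 and 1269 in LF/LCL and 1344, 2504 and 1034 in SF/SCL. The rows named TIEG1 and TIEG2, older names of KLF10 and KLF11, were outside the symbol rule. KLF10 and KLF11 belong to the SIN3A-binding repressors, as KLF9 does. TIEG1 had 3115, 3196 and 2806 in LF/LCL and 1512, 5432 and 2256 in SF/SCL, again with cow 489215 highest. TIEG2 was highest in this cow as well, at 2286. The low values of the 5 repressors were thus not shared by every KLF repressor listed.

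**Figure D4:**
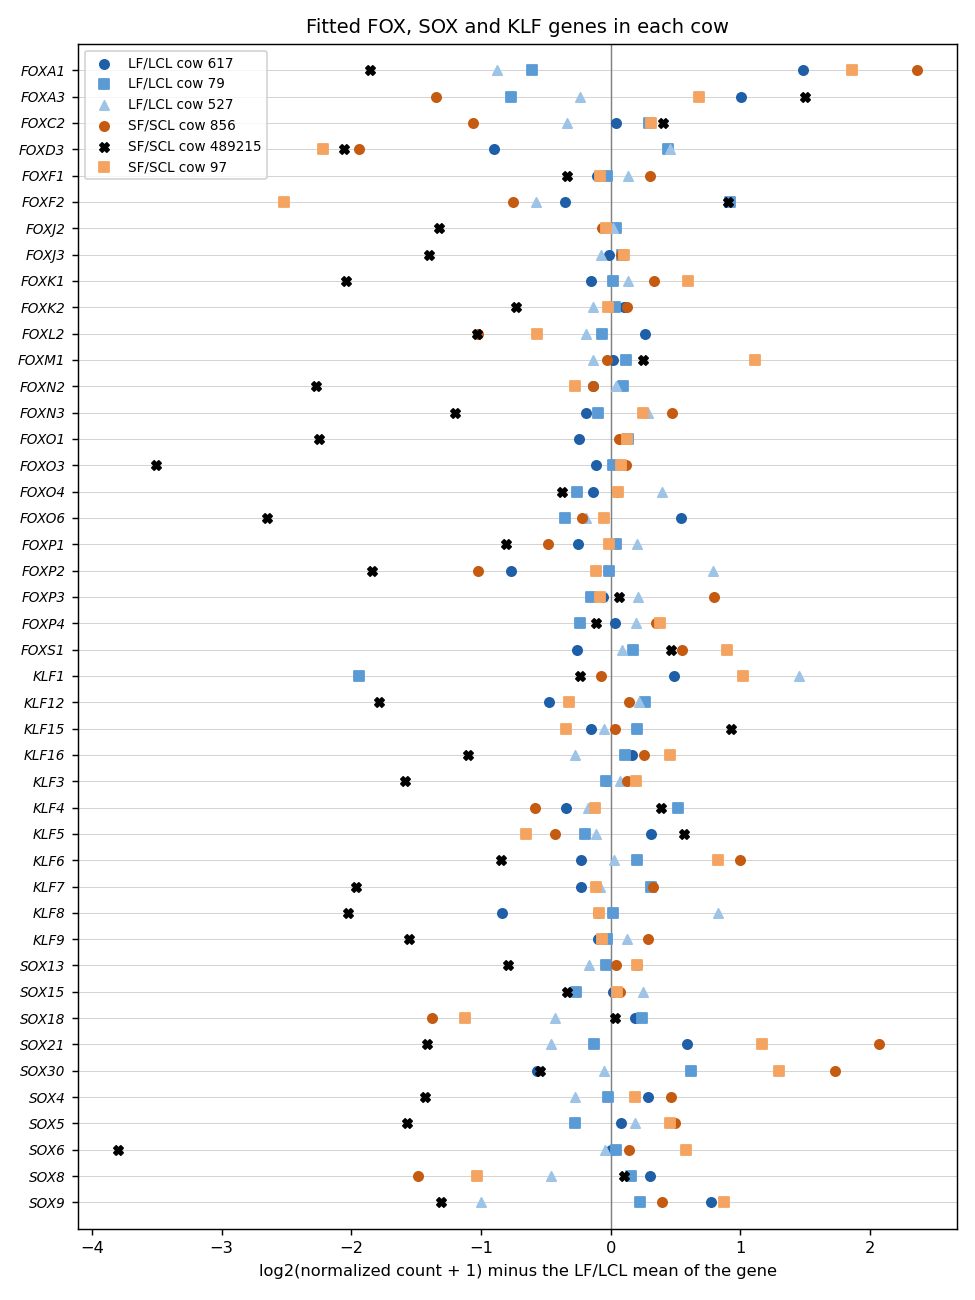
Log2(normalized count + 1) of each of the 44 fitted genes in each cow, minus the LF/LCL mean of the gene, with LF/LCL cows in blue, SF/SCL cows 856 and 97 in orange and SF/SCL cow 489215 as black crosses. The crosses lie left of all other points in 29 genes, farthest in SOX6 and FOXO3, and right of them in 4.

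A small set of low genes was high in SF/SCL cows 856 and 97 and low in the other 4. They were picked after their values were seen, so no test is given for them. FOXE1, a thyroid factor, had 2.09, 0.94 and 1.76 normalized counts in LF/LCL and 115, 1.33 and 101 in SF/SCL, which are 151, 1 and 93 reads in the SF/SCL libraries against 1 or 2 in LF/LCL. FOXN4, known from retina and multiciliated cells, had 12.6, 0 and 1.76 in LF/LCL and 75.2, 0 and 13.0 in SF/SCL. FOXD4L1 had 5.23, 1.88 and 5.27 in LF/LCL and 75.2, 1.33 and 27.1 in SF/SCL, and its reads are uncertain, since the FOXD4 genes are near-identical copies. In FOXE1 and FOXD4L1 the 2 cows stood above all others, while in FOXN4 cow 97 was close to LF/LCL cow 617.

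SOX21, a neural and epithelial repressor, had 8.37, 4.69 and 3.51 normalized counts in LF/LCL and 25.1, 1.33 and 13.0 in SF/SCL. SOX30, known from spermatids, had 5.23, 13.1 and 7.91 in LF/LCL and 29.6, 5.33 and 21.7 in SF/SCL. Their log2 fold changes were 0.61 and 0.83 with the 6 cows and 1.62 and 1.51 without cow 489215, none past the adjusted threshold. Beside these, OVGP1 had 287, 1782 and 1950 in LF/LCL and 271794, 730 and 325158 in SF/SCL, the same 2 cows being high. The 10 ciliated cell genes summed to 31431 to 40039 in LF/LCL and to 52421, 30837 and 56995 in SF/SCL, although PIFO of that list had 0 reads in every library. The largest part of each sum was CAPS, with 16551 to 21404 and a log2 fold change of -0.06. Cow 489215 was lowest in 4 of the 9 in the fit. In DNAI1 and CCDC39 it was above every LF/LCL cow, at 783 against 475 to 588 and 1744 against 1436 to 1706. The 4 mesothelial genes did not share 1 direction, as MSLN had 808, 873 and 1871 in LF/LCL and 17589.6, 2299 and 18098 in SF/SCL, while LRRN4 had 283, 412 and 175 against 3.80, 5.33 and 16.3 and the groups of UPK3B overlapped. The part of these cells in the values of FOXE1, FOXN4, FOXD4L1, SOX21 and SOX30 was not tested.

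**Figure D5:**
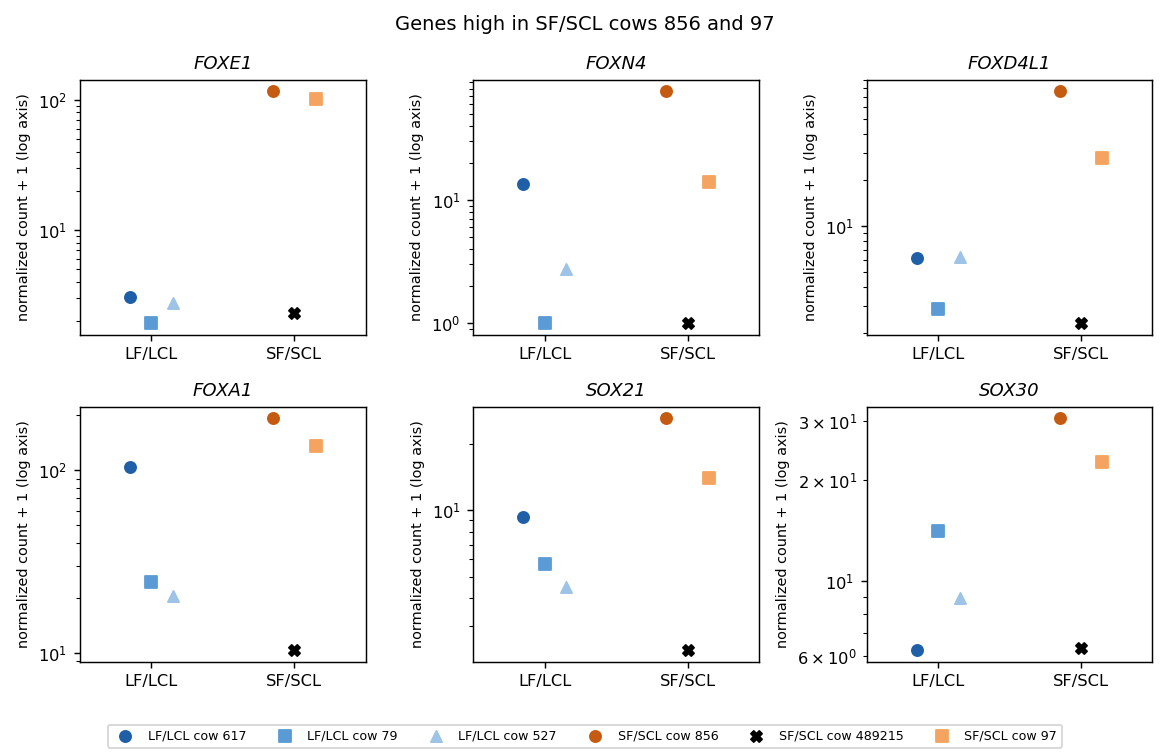
Normalized count + 1 (log axes, each with its own range) of FOXE1, FOXN4, FOXD4L1, FOXA1, SOX21 and SOX30 in the 3 LF/LCL and 3 SF/SCL cows, 1 point per cow. SF/SCL cows 856 and 97 have the 2 highest values in each gene, and cow 489215 is among the lowest, for FOXE1 at 1.33 normalized counts against 115 and 101.

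The kinases and 14-3-3 proteins that keep FOXO factors out of the nucleus gave 0 of 13 genes past an unadjusted p of 0.05, with a median log2 fold change of -0.22. Beside this list and those below, 8.66% of all genes tested passed an unadjusted p of 0.05. Without cow 489215, 18.2% of all genes passed the adjusted threshold. PDPK1, the kinase upstream of AKT, had 668, 757 and 719 normalized counts in LF/LCL and 861, 66.6 and 801 in SF/SCL, the pattern of FOXO3. Without cow 489215, AKT1 fell by 0.43 on the log2 scale (adjusted p = 0.0219 by limma) and the 14-3-3 gene YWHAH rose by 0.54 (adjusted p = 0.0196 by limma) in SF/SCL against LF/LCL.

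Of 15 FOXO target genes, 1 passed an unadjusted p of 0.05 in the direction of SF/SCL and 0 in the other, with a median of 0.14. This was PDK4, which holds back glucose oxidation, with 661, 1864 and 3155 normalized counts in LF/LCL and 3136, 5769 and 3892 in SF/SCL. Its groups overlapped, and the adjusted p was 0.574 (limma). FBXO32, a muscle ubiquitin ligase, was lower in every SF/SCL cow, with 674, 750 and 898 against 396, 142 and 651. Without cow 489215, IRS2 and BCL2L11 passed the adjusted threshold, by 0.75 and 1.09 towards SF/SCL. IRS2, an adaptor of the insulin receptor, had 137, 168 and 157 in LF/LCL and 258, 17.3 and 261 in SF/SCL. Over the 15 targets, cow 489215 was lowest in 6 and highest in 5, PDK4 among the latter, so the list had no common side in this cow.

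Of 13 mitotic targets of FOXM1, none passed an unadjusted p of 0.05 with the 6 cows, the median being 0.05. The list moved unevenly, from -1.75 for CCNB1, a cyclin of mitotic entry, to 1.75 for CDC20, an activator of the anaphase-promoting complex. With the 6 cows, only CDK1 of the 13 had groups that did not overlap. CDK1 had 137, 112 and 120 normalized counts in LF/LCL and 344, 165 and 168 in SF/SCL. The rise of 0.79 on the log2 scale did not pass (adjusted p = 0.639 by limma). Nor did that of 0.97 without cow 489215 (adjusted p = 0.0919 by limma). CCNB1 had 2070, 2897 and 4711 normalized counts in LF/LCL and 281, 4395 and 599 in SF/SCL, whereas FOXM1 itself was highest in cow 97. Without cow 489215, CCNB1 fell by 2.89 and PLK1 by 1.56 on the log2 scale in SF/SCL against LF/LCL (adjusted p = 0.00821 and 0.0202 by limma).

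The 12 corepressor genes that KLF, SOX and FOX factors recruit had 1 gene past an unadjusted p of 0.05 in each direction and a median of -0.13. TLE2 was higher in LF/LCL, with 673, 540 and 794 normalized counts against 317, 523 and 269 (log2 fold change -0.90, adjusted p = 0.496 by limma). CTBP2, the corepressor of KLF3, KLF8 and KLF12, was higher in SF/SCL, with 3870, 3659 and 3223 against 5031, 5565 and 5550 (log2 fold change 0.59, adjusted p = 0.405 by limma). Its relative CTBP1 was the reverse, with 2240, 2265 and 1928 in LF/LCL and 1924, 1704 and 1840 in SF/SCL, lowest in cow 489215 (log2 fold change -0.23, not past the test). With the 6 cows, TLE2, TLE4 and CTBP1 were higher in every LF/LCL cow, and CTBP2 and HDAC2 in every SF/SCL cow. Of all genes, 18.1% did not overlap. HDAC2 had 2952, 2565 and 2610 in LF/LCL and 3529, 4411 and 3166 in SF/SCL. Without cow 489215, 5 of the 12 passed the adjusted threshold, beside 18.2% of all genes. These were TLE2 and TLE4 towards LF/LCL and TLE3, CTBP2 and SIN3B towards SF/SCL.

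The SP factors, the nearest relatives of the KLF family, had 0 of 7 genes past an unadjusted p of 0.05, with and without cow 489215 none past the adjusted threshold, and a median of -0.07. SP1 had 2415, 2681 and 2610 normalized counts in LF/LCL and 2796, 1560 and 3068 in SF/SCL. Of 14 immediate early genes, which share growth factor induction with KLF4 and KLF6, 2 passed an unadjusted p of 0.05 towards LF/LCL and 1 towards SF/SCL, with a median of 0.22. EGR3 had 20.9, 29.1 and 25.5 in LF/LCL and 3.80, 3.99 and 3.25 in SF/SCL (log2 fold change -2.47, adjusted p = 0.351 by limma), and EGR2 followed it at -1.95. DUSP1, a phosphatase that shuts down MAP kinases, was higher in every SF/SCL cow at 0.77. Without cow 489215, EGR3 passed the adjusted threshold towards LF/LCL (-2.52) and FOSL2 towards SF/SCL (0.80).

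Of 9 progesterone and glucocorticoid receptor genes and responsive genes, none passed an unadjusted p of 0.05 with the 6 cows, the median being -0.31. PGR, the progesterone receptor, had 334, 310 and 357 normalized counts in LF/LCL and 368, 382 and 554 in SF/SCL, without overlap, and a log2 fold change of 0.36 (adjusted p = 0.785 by limma). Without cow 489215, HSD11B2, which inactivates cortisol, passed the adjusted threshold towards LF/LCL (-1.74), and HSD11B1, which regenerates it, and ESR1, the estrogen receptor, passed towards SF/SCL (1.80 and 1.08). ESR1 had 3571 to 3834 in LF/LCL and 7235, 608 and 8211 in SF/SCL, so that cow 489215 was lowest in it, as in KLF9 and FOXO1. In the paper, qPCR in more cows found no group effect on PGR or ESR1 transcripts. Its immunostaining for both proteins was stronger in LF/LCL.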

How the data were processed

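Poly(A) RNA from isthmus tissue was sequenced as paired ends. Per the labels and methods, the authors cleaned the reads with seqyClean, placed them on the masked UMD3.1 assembly of cattle (TopHat2 2.0.8, Bowtie2 2.1.0), counted them per gene (HTSeq 0.5.4p2) and divided by size factors (DESeq 1.12.1). Whether the counting used strand was not given in the sources used here, so genes with an antisense or overlapping partner are uncertain. The values deposited by the authors are thus a signal of normalized counts, not counts. All 147696 values were whole multiples of 1 read per library, within 0.02 of a step (100% whole), which gave the reads back.

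A gene entered the fit if its mean exceeded both 5 and its SD. Values on the log2(value + 1) scale were fitted in limma 3.58.1 (R 4.3.3; trended, robust eBayes), with Benjamini-Hochberg adjustment over all genes fitted. The fit on the recovered reads with edgeR 4.0.16 (quasi-likelihood) called 0 genes and DESeq2 1.42.0 called 416 (2.7%) with the 6 cows, none of them a FOX, SOX or KLF gene. The fits were tested on simulated data first. Other alternatives were limma-voom, TMM rescaling, pseudocounts of 0.5 and 5, other filters, eBayes without robust and leaving out each cow.

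The genes, the role, partner and marker lists and the tests were chosen with earlier results of these data known. Genes named with values were those with an unadjusted p under 0.05, without overlap of the groups or past the adjusted threshold without cow 489215, the 8 in which that cow lay farthest from the others, and a list by role. The rest, such as FOXA3, FOXO4, FOXF2, FOXE1, SOX8, SOX13, SOX21, AKT1, YWHAH, IRS2 and ESR1, were named after their values were seen. Sequences are not printed here.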

Additional observations from a re-analysis of the deposited data

How the results depend on the processing

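No paired analysis was possible because the groups share no cow or replicate number. With 3 cows a group and the spread of cow 489215, only large differences could pass. The number of FOX, SOX and KLF genes past an adjusted p of 0.05 was 0 under every alternative with the 6 cows and without any other cow, and 3 without cow 489215, in limma and in edgeR, which was added after seeing the data. Leaving out each cow, 0 to 13 genes had an unadjusted p under 0.05, 0 without LF/LCL cow 617 or 79 and 13 without cow 489215. Likewise 2 to 17 did not overlap. With no filter both counts were 6, FOXB2, FOXE1 and FOXN1 being added to the first, of which FOXB2 and FOXN1 had at most 6 reads in a library. Without cow 489215 the shares of all genes tested were 33.9% by unadjusted p and 52.0% without overlap. For the other cows left out and for no filter, the shares of all genes were not computed. Those counts are thus not a result about the families.

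The FOX median was -0.51 to 0.054 when each cow was left out, the SOX median -0.48 to 0.34 and the KLF median -0.43 to 0.11, each above 0 only without cow 489215. The FOX median was -0.16 on the recovered reads with DESeq2 size factors, in edgeR and in DESeq2. Leaving out each cow, the medians of the lists were -0.12 to 0.14 for SP factors, -0.24 to 0.017 for kinases and 14-3-3 proteins, 0.022 to 0.21 for FOXO targets, -0.23 to 0.38 for FOXM1 targets, -0.22 to 0.21 for corepressors, -0.0081 to 0.43 for immediate early genes and -0.55 to 0.022 for steroid receptor genes. For the marker lists they were 0.22 to 0.98 (ciliated), 0.52 to 0.76 (secretory and general epithelium), -1.02 to -0.23 (smooth muscle), -1.02 to -0.84 (fibroblasts), -0.59 to -0.16 (endothelium), -0.48 to 0.034 (leukocytes), -1.32 to -0.91 (Schwann cells), -0.29 to 0.73 (erythrocytes, 1 gene) and -0.75 to -0.0013 (uterine glands).

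Of 426 values of the 24 named genes of the fit under an alternative, 379 kept their direction and their side of the threshold and 41, in 15 genes, changed sign. On the recovered reads the sign turned for FOXK1 (0.0098 and 0.0088 in edgeR with DESeq2 size factors and in DESeq2), SOX5 (0.028, 0.049 and 0.048 in edgeR with TMM, edgeR with DESeq2 size factors and DESeq2) and SOX9 (0.069, 0.089 and 0.086, 0.034 in limma-voom and 0.0018 with a pseudocount of 5). The cause was not tested. Leaving out each cow gave FOXA1 0.0019 to 2.11, FOXF1 -0.21 to 0.11, FOXK1 -0.86 to 0.47, FOXO1 -1.09 to 0.094, FOXO3 -1.71 to 0.10, KLF15 -0.16 to 0.48, KLF3 -0.73 to 0.16, KLF4 -0.35 to 0.15, KLF5 -0.54 to 0.069, KLF6 -0.012 to 0.91, KLF7 -1.04 to 0.11, KLF9 -0.81 to 0.11, SOX4 -0.62 to 0.33, SOX5 -0.56 to 0.48, SOX6 -1.83 to 0.36 and SOX9 -0.51 to 0.64. In edgeR without cow 489215 the values that turned were 0.12 (FOXF1), 0.47 (FOXK1), 0.082 (FOXO1), 0.095 (FOXO3), -0.15 (KLF15), 0.16 (KLF3), 0.11 (KLF7), 0.12 (KLF9), 0.32 (SOX4), 0.46 (SOX5), 0.38 (SOX6) and 0.49 (SOX9).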

Other observations

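The 4 genes left out of the families by the symbol rule were not alike in cow 489215. FOXJ1, the master factor of motile cilia, had 6276, 5421 and 3436 normalized counts in LF/LCL and 12042, 2609 and 11225 in SF/SCL, the pattern of FOXA1 and SOX21, with cow 489215 lowest. SOX17 had 2800, 2025 and 2432 in LF/LCL and 3648, 3611 and 3069 in SF/SCL, so every SF/SCL cow was above every LF/LCL cow, unlike SOX18 of the same SOX group. FOXA2 had 465, 421 and 178 in LF/LCL and 174, 256 and 234 in SF/SCL. SOX10, a Schwann cell factor, had 54.4, 62.9 and 128 in LF/LCL and 19.7, 59.9 and 46.6 in SF/SCL.

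Of the list of Schwann cell genes, S100B went the other way, with a log2 fold change of 2.39 beside a list median of -1.08. The list of leukocyte genes had 0 of 7 past an unadjusted p of 0.05 and a median of -0.33. The fibroblast list had 6 of 6 genes higher in LF/LCL, beside 51.4% of all genes, with a median of -0.93. Of the 6, 4 had an unadjusted p under 0.05, beside 8.66% of all genes in either direction. FOXL2 and FOXD3 were higher in LF/LCL as well. The part of fibroblasts in the values of FOXL2 and FOXD3 was not tested. TIEG2 had 1010, 1483 and 1374 in LF/LCL and 1603, 2286 and 1569 in SF/SCL, every SF/SCL cow being above every LF/LCL cow.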
